A study of Mus musculus with 3 samples.

Results

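The B cell genes described here are 8 genes of the B lymphocyte lineage that were followed on 3 arrays of sorted mouse spleen cells: Ighm, Cd79a, Cd79b, Blk, Cr2, Cd22, Ms4a1 and Pax5. They were chosen by their higher level in GFP-positive than in GFP-negative monocytes, as seen in an earlier look at the same arrays, so that this difference is a description and not a finding. They are 8 of the 18193 genes named on the array, and every probe set annotated to one of their symbols alone was taken, 21 in all. Each group is 1 array of adult mouse spleen cells, and all cells came from Spic(igfp/+) mice, in which 1 allele of Spic carries a GFP reporter. The groups are monocytes without Spic (CD11b+ Ly6C+ GFP-, here GFP-negative), monocytes with Spic (CD11b+ Ly6C+ GFP+, here GFP-positive) and red pulp macrophages (F4/80 high, GFP high). For the monocytes, cells bearing CD4, CD8 and B220, the last a surface form of Ptprc carried by B cells, were removed on magnetic beads before the sort, and the labels leave unclear whether this also holds for the macrophages. The sources used here do not give the number of animals behind an array.

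A B cell detects antigen through a membrane antibody, whose mu heavy chain is encoded by Ighm, held in a complex with a signalling pair encoded by Cd79a and Cd79b. Src-family kinases such as the one encoded by Blk phosphorylate the tails of this pair, while coreceptors on the same cell raise (Cr2) or restrain (Cd22) the signal. Pax5 is the transcription factor that commits precursors to the B lineage and keeps many of these genes active, and Ms4a1 encodes CD20, a membrane protein of mature B cells. In the spleen, marginal zone B cells, which are rich in the product of Cr2, lie next to the red pulp, where the macrophages live. Spic encodes an Ets factor related to PU.1 that red pulp macrophages require and that is also expressed in B lineage cells.

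The promoters are shown because these genes were chosen for a shared direction between the monocyte arrays, and 4 of the 8 had one in the RefSeq promoter table of build GRCm38.p6, namely Cd22, Cd79a, Cr2 and Pax5. The sequences below are the 250 bases before the start of the 3 genes with a match, 5′ to 3′ on the strand of the gene, with matches to any of 4 motifs in capitals: the PU box GAGGAA bound by PU.1 and its relatives, the octamer ATGCAAAT of antibody genes, the EBF1 core CCCNNGGG and the E-box CAGGTG bound by E2A. Both strands were searched, and no match overlapped another. Cd79a lies at chr7:24897247-24897496 (+), Cd22 at chr7:30879029-30879278 (-) and Cr2 at chr1:195176720-195176969 (-).
Cd79a: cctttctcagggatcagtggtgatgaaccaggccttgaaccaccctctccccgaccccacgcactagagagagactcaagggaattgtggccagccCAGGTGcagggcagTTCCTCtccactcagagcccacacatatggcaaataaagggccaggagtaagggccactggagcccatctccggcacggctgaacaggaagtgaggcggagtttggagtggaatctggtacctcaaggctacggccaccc
Cd22: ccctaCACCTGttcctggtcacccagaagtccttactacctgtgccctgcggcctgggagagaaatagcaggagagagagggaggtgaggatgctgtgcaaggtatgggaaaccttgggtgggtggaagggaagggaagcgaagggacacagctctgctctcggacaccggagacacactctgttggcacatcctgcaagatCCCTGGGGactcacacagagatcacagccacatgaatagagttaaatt
Cr2: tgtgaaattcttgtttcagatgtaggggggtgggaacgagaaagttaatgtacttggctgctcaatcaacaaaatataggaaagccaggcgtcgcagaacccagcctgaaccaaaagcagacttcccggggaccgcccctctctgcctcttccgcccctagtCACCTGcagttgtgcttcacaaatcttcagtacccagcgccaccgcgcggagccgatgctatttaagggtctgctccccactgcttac

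The E-box was present in 3 of the 4 promoters searched, beginning 154 bases before the start of Cd79a, 245 before that of Cd22 and 88 before that of Cr2. In 17.2% of the 32851 promoters in the table the same letters occurred in a window of that length. The PU box occurred in the promoter of Cd79a, 140 bases before the start, and in 23.3% of all promoters. The EBF1 core occurred in that of Cd22, 48 bases before the start, and in 11.8% of all. The octamer, found in 1.60% of all promoters, was in none of the 4, and the window of Pax5 held none of the 4 motifs. These are matches of letters, with no measurement of binding.

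Levels are log2 values that the authors made with RMA, and a difference of 1 on this scale is 2-fold. Levels under a floor of log2 5.02 are near background, the floor being the median over the arrays of every probe set that is not a control. There is 1 array per group and so no replicate check: differences are given by size, with no test, and their error between animals is unknown. All comparisons share arrays, so they are not independent of each other or of the choice of the members. Of the 21 probe sets, 18 were above the floor on at least 1 array, and each gene is represented by its brightest probe set over the 3 arrays unless another is named. All 8 genes pass the floor that way, and since the brightest array counts, a gene could pass through the array on which it is high.

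The arrays fitted their labels in Spic and in the medians of marker lists, and technical controls also differed between the arrays. Spic measured 5.66 in GFP-negative monocytes, 9.22 in GFP-positive monocytes and 12.23 in red pulp macrophages. Itgam, which encodes CD11b, measured 8.68, 7.38 and 5.23 in the same order, although both monocyte groups were sorted as CD11b+. The median level of 12 classical monocyte markers was 12.68, 12.09 and 9.61 on the 3 arrays, and that of 17 red pulp macrophage markers was 5.66, 8.39 and 12.70. The 18 hybridization control probe sets, spiked into every sample, were each brighter on the GFP-positive than on the GFP-negative array (median difference 2.16 in log2), whereas the median difference of macrophages from GFP-negative monocytes was 0.07. The excess of the 3′ over the 5′ end, which is larger in shortened RNA, was 0.48, 2.25 and 1.61 for the Gapdh controls in the same order of arrays, and 0.74, 0.57 and 1.13 for those of beta-actin, so that the 2 controls ran opposite ways between the monocyte arrays. The part of these differences in the levels of the B cell genes was not tested.

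Among the monocytes, 7 of the 8 B cell genes were at least 2-fold higher with Spic than without, and 4 of them at least 4-fold. Over the 12375 genes that exceeded the floor, 3.49% passed 2-fold upwards and 0.663% passed 4-fold, and nothing is read from that contrast because the genes were chosen on it. The choice did not fix where the macrophages lie, but it favoured a high GFP-positive level, with which they are compared. Spic was higher on each array than on the one before, and 2 of the 8 genes (25.0%), Ighm and Cd79b, had that order on their brightest probe set. Over all genes the share was 19.1%, but these were not chosen for the first step. Of the 432 genes at least 2-fold higher in GFP-positive than in GFP-negative monocytes, 49.5% had that order. The remaining 50.5% were highest in GFP-positive monocytes, as were the other 6 of the 8 genes. These shares describe where each gene lies and do not set the 8 genes apart, and for Cd79a and Pax5 the order of GFP-positive monocytes and macrophages turned under cyclic loess normalization.

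**Figure D1:**
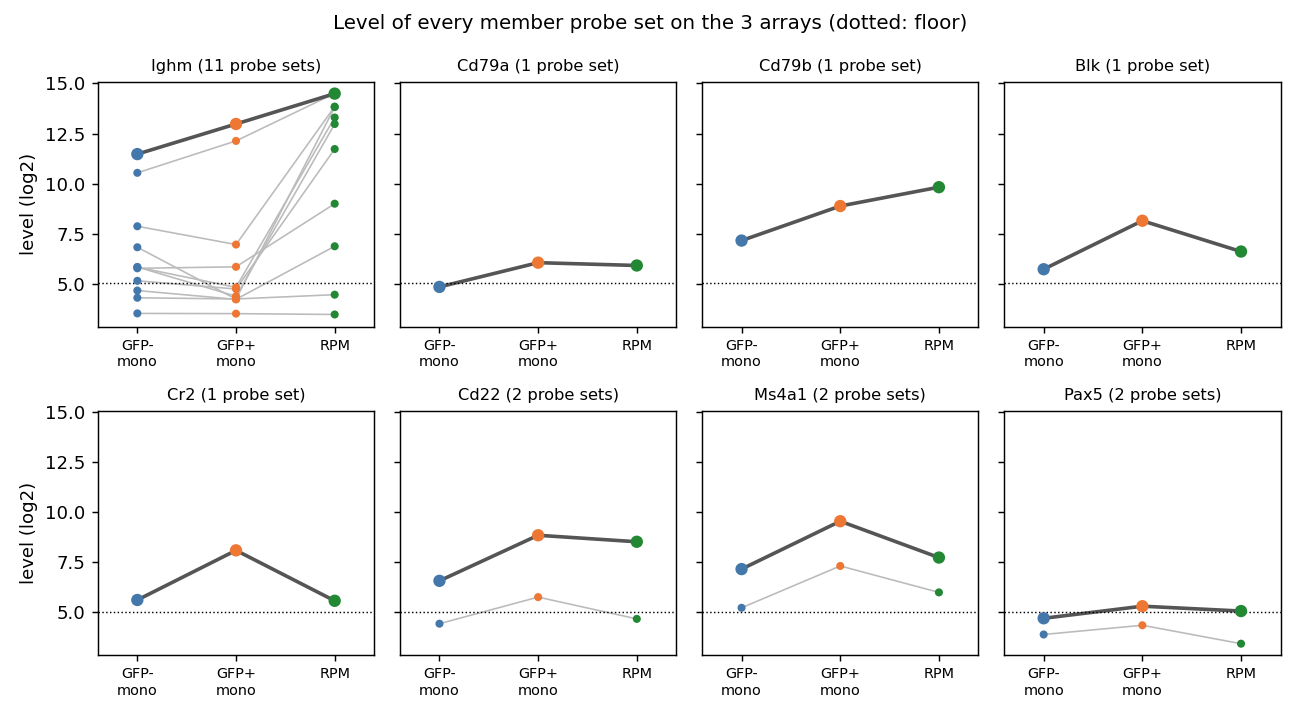
Level (log2, vertical axis) of each of the 21 probe sets on the arrays of GFP-negative monocytes, GFP-positive monocytes and red pulp macrophages (RPM), 1 panel per gene; the dark line with large points is the brightest probe set, pale lines are the others and the dotted line is the floor at 5.02. Blk, Cr2 and Ms4a1 peak in GFP-positive monocytes, while Cd79b goes from 7.16 over 8.88 to 9.82.

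The receptor complex itself divided between these patterns. Cd79b (Ig-beta) measured 7.16 in GFP-negative monocytes, 8.88 in GFP-positive monocytes and 9.82 in red pulp macrophages. It was thus higher by 1.72 in GFP-positive monocytes and by 2.66 in macrophages, relative to GFP-negative monocytes. Its partner Cd79a (Ig-alpha) measured 4.85, 6.06 and 5.92, below the floor in GFP-negative monocytes and within 0.14 of each other on the other arrays. Both genes rest on 1 probe set each. Cd79a stayed close to background throughout, and its difference of 1.21 between the monocytes rests on a level under the floor in GFP-negative cells.

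Ighm, the IgM heavy chain, had 11 probe sets, and they did not move alike. On the brightest, 1427351_s_at, it measured 11.47, 12.97 and 14.49. On the next, 1427329_a_at, it measured 10.54, 12.13 and 14.50, and the last value is the highest of any probe set on the macrophage array. Both were higher in GFP-positive than in GFP-negative monocytes, by 1.50 and 1.59. The highest level on the 3 arrays lay between 14.39 and 14.50, so the macrophage levels of these probe sets lie at the end of the scale.

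Of the other 9 Ighm probe sets, 8 were lower in GFP-positive than in GFP-negative monocytes, and 3 of these by at least 2-fold. On these 3 the GFP-positive level was below the floor (4.24, 4.82 and 4.38), so the size of the drop rests on levels near background. In that comparison 5.10% of the 25800 probe sets above the floor on some array were lower by 2-fold or more, and 3.19% were higher. The probe set 1425385_a_at measured 6.82 in GFP-negative monocytes, 4.24 in GFP-positive monocytes and 13.82 in macrophages, so that the monocyte difference was -2.59. The probe set 1427870_x_at measured 7.87, 6.96 and 13.84, and it alone among the 8 was above the floor on both monocyte arrays. Against GFP-negative monocytes, 9 of the 11 were past 2-fold upwards in macrophages, by 2.21 to 7.47, a step taken by 16.9% of all probe sets above the floor. The remaining 2, 1451949_at and 1426196_at, were below the floor on all 3 arrays.

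**Figure D2:**
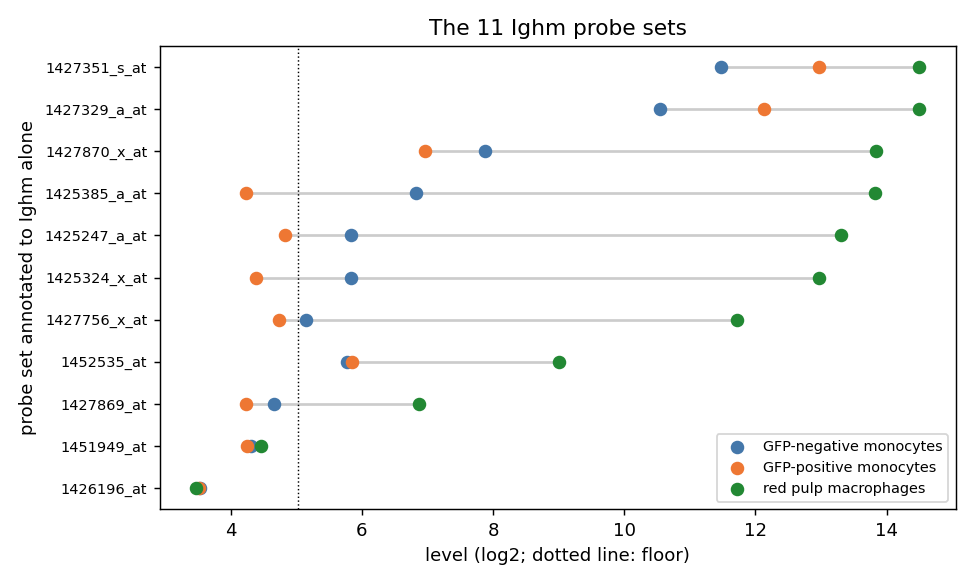
Level (log2, horizontal axis) of the 11 probe sets annotated to Ighm alone, 1 row each and ordered by mean level, on the 3 arrays; the dotted line is the floor. The orange points (GFP-positive monocytes) lie to the right of the blue points (GFP-negative monocytes) by over 1 in the top 2 rows only, and the green points (macrophages) lie far to the right in 9 rows.

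Which parts of the transcript these probe sets read is not given in the files, and antibody genes are near-identical copies of each other, so that an Ighm probe set can also take up signal of other heavy chains. A further 4 probe sets carried Ighm together with other heavy chain symbols and were left out. The brightest of them, annotated to Ighv1-72 and Ighm, measured 5.96 in GFP-negative monocytes, 4.87 in GFP-positive monocytes and 8.20 in macrophages. The direction of Ighm between the monocyte arrays therefore depends on the probe set: it was 1.50 on the brightest and -0.34 for the mean of the 11. With the median level of the 11 on each array it was -1.09, which sets different probe sets against each other. The median of the 11 differences was -0.41. Its direction in macrophages against GFP-negative monocytes did not turn, with 3.02 on the brightest and a range of 2.91 to 7.14 over 8 alternatives. The 7.14 again came from median levels, and the median of the 11 differences was 3.96.

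Blk, the Src-family kinase of the receptor, measured 5.73 in GFP-negative monocytes, 8.15 in GFP-positive monocytes and 6.61 in red pulp macrophages. The difference between the monocytes was 2.42. Macrophages lay between the monocyte arrays, 0.88 above GFP-negative monocytes and at -1.54 from GFP-positive monocytes.

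The coreceptor genes differed from each other in macrophages. Cr2 (CD21), the complement receptor that lowers the threshold of the B cell receptor, measured 5.60, 8.08 and 5.56, so macrophages and GFP-negative monocytes were within 0.041 of each other. Its difference of 2.48 between the monocytes was the largest among the 8 genes. Cd22, an inhibitory lectin, measured 6.56, 8.83 and 8.51 on its brighter probe set. On the dimmer one it measured 4.42, 5.75 and 4.66, and only the GFP-positive value exceeded the floor. The macrophage level of Cd22 was thus 1.95 above that of GFP-negative monocytes on the first probe set and 0.24 on the second.

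Ms4a1 (CD20) measured 7.14 in GFP-negative monocytes, 9.53 in GFP-positive monocytes and 7.72 in red pulp macrophages. Its other probe set gave 5.21, 7.30 and 5.98. Both showed the same order, with differences of 2.39 and 2.09 between the monocytes and with differences of -1.81 and -1.32 between macrophages and GFP-positive monocytes.

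Pax5 was the weakest of the 8. It measured 4.69, 5.29 and 5.05 on its brighter probe set, a difference of 0.60 between the monocytes. The other gave 3.88, 4.34 and 3.42, below the floor on every array. At these levels the data do not separate expression from background, and Pax5 was the only one of the 8 genes that did not reach 2-fold in the monocyte comparison.

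Compared with GFP-negative monocytes, 4 of the 8 genes (Ighm, Cd79b, Cd22 and Cd79a) were at least 2-fold higher in red pulp macrophages, and Ighm and Cd79b at least 4-fold. Among all genes 19.6% passed 2-fold upwards, 7.38% passed 4-fold upwards and 11.3% passed 2-fold downwards. The median of the 8 was 0.98, beside 0.03 for all genes. It was 0.88 without Ighm, a value chosen after seeing that its probe sets disagree.

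Compared with GFP-positive monocytes, macrophages were lower by 2-fold or more in Cr2 (-2.52), Ms4a1 (-1.81) and Blk (-1.54), and higher by that much in Ighm (1.52). In this comparison 11.6% of all genes passed 2-fold downwards and 22.0% upwards. Cd79b differed by 0.94, Cd79a by -0.14, Pax5 by -0.24 and Cd22 by -0.32. The median was -0.28, beside 0.10 for all genes. In bulk RNA of a sorted population, fewer cells of a type and less RNA per cell cannot be told apart.

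**Figure D3:**
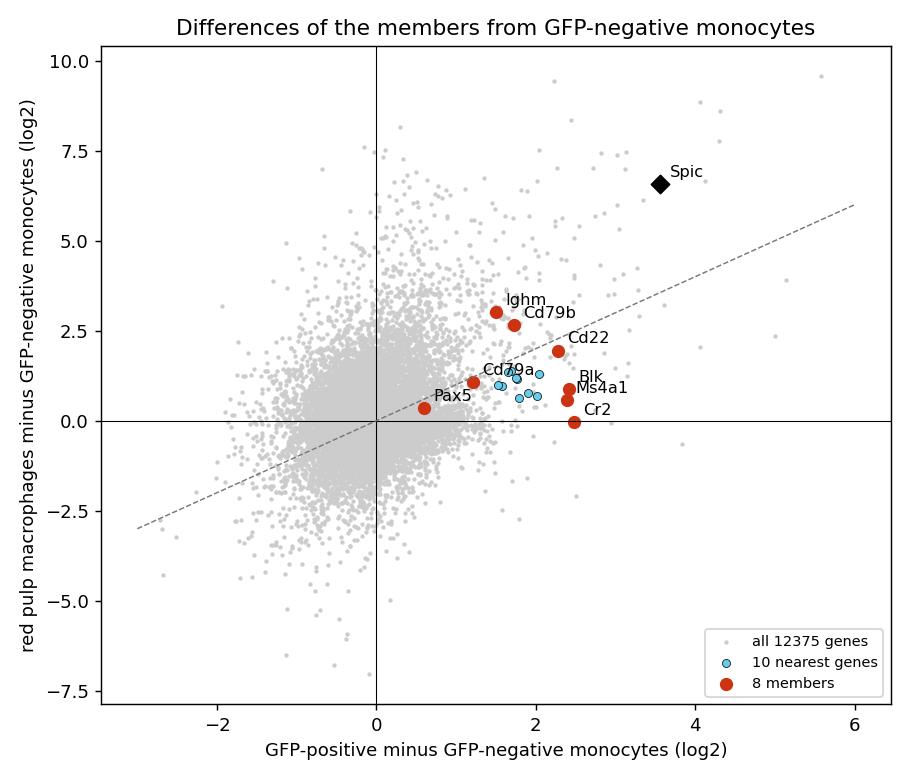
Each point is a gene above the floor: the horizontal axis is GFP-positive minus GFP-negative monocytes and the vertical axis red pulp macrophages minus GFP-negative monocytes (both log2); the dashed line marks equal differences, both axes share the GFP-negative array, and the diamond is Spic. Ighm and Cd79b lie above the dashed line, and Blk, Ms4a1 and Cr2 lie well below it, with Cr2 at -0.041 on the vertical axis.

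The genes with the pattern closest to the median of the 8 (1.998 for GFP-positive and 0.98 for macrophages, each minus GFP-negative monocytes) were sought among 256 genes at least 2-fold higher in GFP-positive monocytes and with a level of at least 7 on their brightest array. By Euclidean distance over the 2 differences, the nearest were Slamf7 (distance 0.22), a receptor of several leukocytes, Tlr1 (0.29), a Toll-like receptor, the chemokine gene Ccl4 (0.29), Adap2 (0.31) and the chemokine gene Cxcl16 (0.31). They were followed by Ms4a3 (0.41), Dtx1 (0.42), Ralgds (0.48), Gpr31b (0.51) and Gbp2 (0.53). Of these 10, only Dtx1, an E3 ligase that modulates Notch signals, is on one of the B lineage lists used below. The likeness rests on 2 differences between 3 arrays.

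The rest of the B cell programme was taken from 9 lists of B lineage genes, chosen with earlier results of these data known. Without the 8 genes they held 125 genes, of which 102 were above the floor. Between the monocyte arrays 31 of these were at least 2-fold higher in GFP-positive cells and 2 lower, beside 3.49% and 3.06% of all genes, and their median was 0.25 beside -0.06. In macrophages against GFP-negative monocytes 47 passed 2-fold upwards and 12 downwards, beside 19.6% and 11.3% of all genes, and the median was 0.66 beside 0.03. A gene could pass the floor through the array on which it is high, and over all 112 genes with a probe set the medians were 0.22 and 0.42 in these comparisons. Of the 31 genes higher in GFP-positive monocytes, 12 were highest on that array and 19 in macrophages, while of the 432 such genes among all genes 218 and 214 were.

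Among partners of the receptor, 3 of 6 genes were at least 2-fold higher in GFP-positive monocytes: Cd72, an inhibitory coreceptor, at 5.21 and 7.57 in GFP-negative and GFP-positive monocytes, Cd81, a tetraspanin (6.06 and 8.08), and Siglecg, an inhibitory lectin (6.26 and 7.59). Cd81 went on to 12.73 in macrophages, and Cd72 and Siglecg lay at 6.91 and 6.92 there. Ifitm1 was at least 2-fold lower (-1.16), and Fcgr2b, the inhibitory Fc receptor shared with myeloid cells, differed by 0.36.

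Of 21 measured signalling genes downstream of the receptor, 2 were at least 2-fold higher in GFP-positive monocytes, the adaptor gene Blnk (5.75, 8.23 and 10.83 over the 3 arrays) and Rasgrp3, an activator of Ras (4.23, 5.29 and 8.25), and the median was -0.13. The count was 1 under 4 of 8 alternatives. For Rasgrp3 the GFP-negative level was below the floor. Its other probe set measured 5.21, 5.40 and 6.37, a difference of 0.19 between the monocytes. Syk, Btk and Plcg2, which myeloid cells also use, differed by -0.13, -0.16 and -0.15. Bank1, a B cell adaptor, differed by 0.76 between the monocytes and by 4.34 between macrophages and GFP-negative monocytes.

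Of 16 B lineage transcription factors other than Pax5, 6 were at least 2-fold higher in GFP-positive monocytes, or 3 with the median of each gene's probe sets. Spib, an Ets factor of B cells and plasmacytoid dendritic cells and a relative of Spic, measured 5.53 in GFP-negative and 7.99 in GFP-positive monocytes and 7.005 in macrophages. Pou2af1, the coactivator of octamer factors, measured 5.35, 7.19 and 10.23 in the same order. Ebf1, which acts with Pax5 in early B cells, measured 4.24, 5.69 and 3.998, above the floor in GFP-positive monocytes only. Ets1, Ikzf3 and Relb were higher by 1.86, 1.70 and 1.03. Spi1, which encodes PU.1, differed by 0.17 and Tcf3 by 0.05.

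Other surface and marker genes of B cells contributed 12 of 22 past 2-fold upwards, and their median of 1.06 dropped below 1 under 4 of 8 alternatives. Scd1, a fatty acid desaturase, was higher by 2.44, Ly6d by 2.25, Fcrl1 by 1.62 and Fcmr, the receptor for IgM, by 1.57. Dimmer probe sets of Scd1 and Fcrl1 differed by only 0.43 and 0.49. Fcer2a (CD23), a marker of follicular B cells, measured 4.45, 5.84 and 5.10, and the chemokine receptor gene Cxcr5, which guides cells to follicles, 5.0002, 6.20 and 6.44. A dimmer probe set of Fcer2a, below the floor on each array, differed by 0.11 between the monocytes. Tnfrsf13c, the BAFF receptor, differed by 0.31 and Vpreb3 by 0.76.

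Genes of marginal zone and B1 cells included 6 of 13 at least 2-fold higher in GFP-positive monocytes. Asb2 (3.02), Cd1d1 (1.86), Dtx1 (1.58), the lipid receptor gene S1pr1 (1.47), Cd9 (1.41) and Mzb1 (1.19) were these. S1pr1, which counters the pull of the follicle, measured 4.96, 6.44 and 3.83 and so, as Cr2, was lower in macrophages than in GFP-positive monocytes. Asb2, Cd1d1 and Mzb1 were highest in macrophages, at 11.45, 11.50 and 12.09. Notch2, the receptor that directs the marginal zone fate, differed by -0.16.

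Of the lists for later and earlier stages of the lineage, 1 of 7 germinal centre genes (Basp1, 1.52), 1 of 13 plasma cell genes (Mzb1) and 1 of 6 precursor genes (Myb, 1.33) were at least 2-fold higher in GFP-positive monocytes. In macrophages 9 of 13 plasma cell genes passed 2-fold upwards against GFP-negative monocytes (median 1.72). The rest were the transcription factor genes Xbp1 (-0.49), Prdm1 (-0.21) and Irf4 (0.52), and Fkbp11 (-0.51, but 2.39 on a dimmer probe set). Jchain, which joins IgM into polymers, measured 11.58, 11.81 and 13.13 on the 3 arrays. Tnfrsf17, a receptor of plasma cells, measured 4.78, 4.56 and 7.95, and Sdc1 (CD138) 5.71, 5.78 and 7.90. On their brightest probe sets these 3 were each within 0.23 of each other between the monocyte arrays. Other probe sets of Sdc1 differed by -0.49 to 0.32 there and measured 5.76 to 9.10 in macrophages.

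Light chain genes were represented by only 2 segments with a symbol of their own. Iglv1 measured 7.13 in GFP-negative monocytes, 10.40 in GFP-positive monocytes and 11.36 in macrophages. Igkv9-120 measured 7.71, 5.78 and 10.89, lower in GFP-positive than in GFP-negative monocytes. Most Ighm probe sets were lower there too, but mainly with GFP-positive levels below the floor. Both symbols belong to families of near-identical copies, and the level of each can include other segments.

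**Figure D4:**
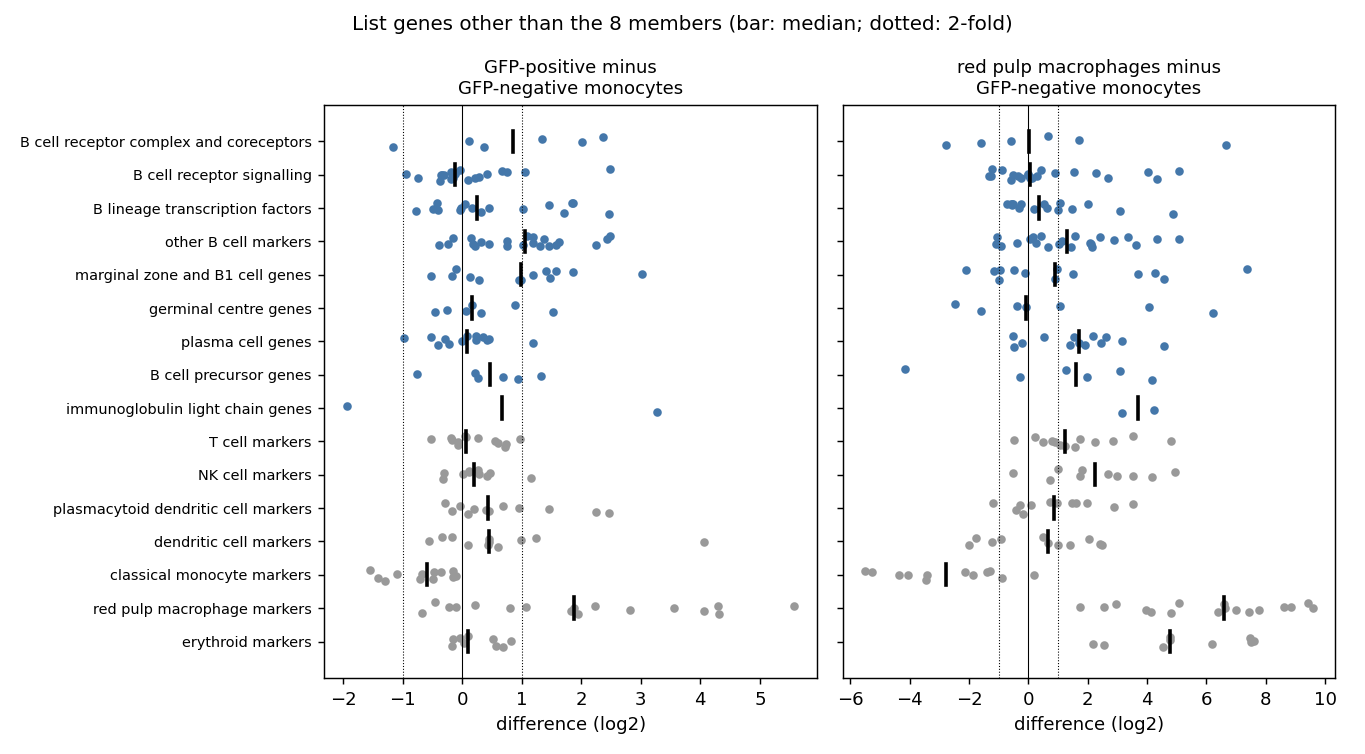
Difference (log2, horizontal axis) of each gene above the floor in 9 B lineage lists (blue) and 7 lists of other cell types (grey), without the 8 genes, for GFP-positive monocytes (left) and red pulp macrophages (right), each minus GFP-negative monocytes; short bars are medians and dotted lines mark 2-fold. On the left, other B cell markers and marginal zone genes have medians near 1. The medians of signalling (-0.13), plasma cell (0.07) and germinal centre genes (0.16), and those of T cell, NK cell and erythroid markers, lie near 0. Those of plasmacytoid dendritic cell (0.43), dendritic cell (0.44) and red pulp macrophage markers (1.88) are higher, and that of classical monocyte markers is lower (-0.59).

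Markers of other cells that the sort could hold are given beside the B cell genes. Of 13 T cell markers none was at least 2-fold higher or lower in GFP-positive monocytes (median 0.07), of 10 NK cell markers 1 was higher (Nkg7, 1.15), and of 9 erythroid markers none (median 0.11). The log2 summed level of the T cell list was 9.05 in GFP-negative and 9.27 in GFP-positive monocytes, and that of the NK cell list 8.59 and 8.90. Of 12 plasmacytoid dendritic cell markers (median 0.43) 3 were higher, Spib, Ly6d and Ccr9 (3.75 and 5.22), of which the first pair are also on the B lineage lists. The other probe sets of Ccr9 were below the floor on both monocyte arrays and differed by -0.63 to 0.46. Siglech, the marker that defines this cell, measured 5.02 in GFP-negative and 5.70 in GFP-positive monocytes. Of 11 dendritic cell markers 2 were higher, Ccr7 by 4.05 and Zbtb46 by 1.25 (median of the list 0.44). Classical monocyte markers were at least 2-fold lower in 4 of 12 (median -0.59) and red pulp macrophage markers at least 2-fold higher in 11 of 17 (median 1.88).

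On the macrophage array the markers of other lymphocytes were higher along with Ighm and Cd79b. Of all 14 T cell markers with a probe set, whether above the floor or not, 8 were at least 2-fold higher than in GFP-negative monocytes (median 1.15), of 11 NK cell markers 7 (median 1.80) and of 11 erythroid markers 9 (median 4.77). Over all 18193 genes, with no floor, 13.8% were at least 2-fold higher in that comparison. Above the floor were 4, 3 and 2 of the T cell, NK cell and erythroid markers in GFP-negative monocytes and 13, 10 and 9 in macrophages. The log2 summed level of the T cell list was 10.81 there and that of the erythroid list 13.58, against 8.07 in GFP-negative monocytes. The summed level of the receptor complex list, which holds the 8 genes except Blk and Pax5, was 13.27, 14.14 and 15.01 over the 3 arrays. Its brightest gene was Fcgr2b in GFP-negative monocytes (12.31), and Ighm in GFP-positive monocytes (12.97) and macrophages (14.49). Of 11 B cell precursor genes with a probe set, 6 were above the floor on some array. Rag1, Rag2 and Vpreb1 were below it on each, Igll1 was above it on each (6.04, 6.30 and 5.75), and Myb and Il7r, which other cells also express, measured 8.50 and 8.38 in macrophages. How much of the level of the 8 genes on any array came from B lineage cells was not tested.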

How the data were processed

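RNA of 3 sorted populations was measured on 1 Affymetrix mouse array each. Per the submitters' processing notes, the deposited log2 values were made with RMA, whose version the sources used here do not give. No source names the scale, which was read as log2 from the deposited values, which run from 1.82 to 14.50. The members and gene lists were chosen with earlier results of these data known. Of 45101 probe sets, 64 controls were left out. Of the rest, 34945 had 1 gene symbol in the platform annotation, 932 several and 9160 were unnamed here. Symbols of the probe sets with 1 symbol were updated through the gene identifier with a table of GRCm38.p6, and the lists were matched to the updated symbols. A gene took the log2 value of its brightest probe set, and 12375 of 18193 genes exceeded the floor of 5.02 on some array. Differences were counted at 2-fold and 4-fold. Genes named are the 8 members, members of the 16 lists and the 10 genes nearest in pattern, and single probe sets were singled out after their values were seen. The number of arrays limits the precision, and p-values are not given. Some genes of the lists were not analysed here because no probe set carried their symbol alone. Alternatives tried were a mean or median over probe sets, centring, quantile normalization again, cyclic loess (limma 3.58.1 in R 4.3.3), no floor or one at the 75th percentile (7.26), and leaving out probe sets ending in _x_at or _s_at. Python 3.11.15, numpy 2.4.6 and pandas 2.3.3 were used, and the scripts were tested on simulated data.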

Additional observations from a re-analysis of the deposited data

How the results depend on the processing

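No paired analysis was possible because each group has 1 array. A value counted as changed where it crossed 2-fold or, past 2-fold, changed sign, and a count where it moved by over 1.5 times. Of the recomputed differences of single members, 177 kept their side of 2-fold, 4 of them with a turned sign close to 0 (Cd79a, Cr2 and Pax5), and 3 changed. Ighm between the monocyte arrays turned to -0.34 (mean of its probe sets) and -1.09 (median of their levels on each array), because most of its probe sets ran the other way. Cd79b in macrophages against GFP-positive monocytes passed 2-fold (1.06) with centred arrays. The median of the members in macrophages minus GFP-negative monocytes was 1.07 for the mean and also for the median of probe sets, 1.02 with centred arrays, 1.07 with cyclic loess and 1.42 with the higher floor, against 0.98. Only 7 members were above the floor with the mean or the median of probe sets, and 6 with the higher floor, so these medians cover fewer genes. Members at least 2-fold higher in macrophages than in GFP-positive monocytes numbered 2 with centred arrays and 0 without Ighm, a setting chosen after seeing the data, against 1. Over all genes, 249 instead of 432 were higher and 237 instead of 379 lower in GFP-positive monocytes, under the higher floor and the mean of probe sets, and 943 instead of 1435 were lower in macrophages than in GFP-positive monocytes under the higher floor; fewer genes are tested there. Centring the arrays moved the median monocyte difference of all genes from -0.06 to -0.13 and the share of higher among differing genes from 53.3% to 42.4%, while the share was 61.1% with quantile normalization again and 60.3% with cyclic loess. The median of B cell precursor genes in macrophages against GFP-positive monocytes went from 1.05 to -0.12 with no floor. Levels of Pax5 and Cd79a near the floor limit what can be said of them.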
